A study of Mus musculus with 9 samples.

Results

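Transcripts used to recognise neutrophils, eosinophils, mast cells and basophils were followed in sorted mouse peritoneal macrophages. The members are 31 genes chosen by symbol and found through their Ensembl identifiers, mapped with GENCODE M21, of 47729 gene identifiers in all: 15 are used as neutrophil genes, 5 as eosinophil genes and 11 as mast cell or basophil genes. RNA-seq was done on 9 libraries, 3 each of tissue converted, tissue resident and monocyte-derived macrophages sorted by flow cytometry; the labels do not state the gates. All mice were Cx3cr1CreERT2-IRES-EYFP/+ Rosa26-stopfl-tdTomato/+, so the Cre that tamoxifen switches on, and the yellow reporter, sit at the Cx3cr1 gene. All of them received 5 µg of IL-4 complexed with 25 µg of anti-IL-4 every other day from 4 days before harvest. Converted macrophages came from mice given 2 ml of thioglycollate, an irritant that recruits monocytes, and a tamoxifen diet for 10 weeks. For resident macrophages the labels give no further treatment. Monocyte-derived macrophages were harvested on day 4 after 2 ml of thioglycollate. Whether each library had its own mouse is not stated, and a p-value here reflects library-to-library spread that could be technical. Age and sex are not given either.

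Granulocytes carry preformed proteins in granules, which they make at set stages of maturation. Neutrophils load peroxidase and serine proteases into primary granules early and antimicrobial proteins into secondary granules later, eosinophils load basic proteins and their own peroxidase, and mast cells load chymase, tryptase and carboxypeptidase. Mast cells of the connective tissue type live in the peritoneal cavity beside macrophages and B cells, and neutrophils and eosinophils enter it after an irritant. Several of these genes are not restricted to the cell they are named for. S100a8, S100a9 and Trem1 are also made by monocytes, Il5ra by B-1 cells, and Il1rl1 by other cells that respond to the alarmin IL-33.

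Reads in genes numbered 18593287 to 20496258 in converted, 18320223 to 20396897 in resident and 15220884 to 17940140 in monocyte-derived libraries. The macrophage label was checked against markers: 9 general macrophage genes summed to 6663 to 8351 CPM (counts per 1e6 reads, on library sizes scaled by edgeR's TMM method) in converted, 7064 to 7364 in resident and 4458 to 7234 in monocyte-derived libraries. This sum holds opposite changes. In the same order of groups, Adgre1 averaged 3077, 2978 and 343 CPM and Csf1r 1120, 1105 and 1095 CPM. Lyz2 averaged 576, 437 and 1837 CPM, and Fcgr1 0.467, 0.538 and 15.9 CPM. The 6 genes of resident cavity macrophages summed to 6729 to 7622 CPM in converted, 6624 to 7544 in resident and 123 to 162 in monocyte-derived libraries. The 8 B-cell markers summed to 64.5 to 169.6 CPM in converted, 1088 to 1400 in resident and 32.7 to 75.9 in monocyte-derived libraries. The 8 monocyte markers summed to 26.7 to 29.0, 71.8 to 85.1 and 638 to 1700 CPM in the same order of groups. Sex-linked transcripts also split the libraries: Ddx3y, on chromosome Y, had 84.6 to 96.1 CPM in converted and 85.9 to 93.3 CPM in resident libraries, and had no read in monocyte-derived ones. Sex and the recent irritant therefore cannot be told apart from origin in either comparison with monocyte-derived libraries, nor the earlier irritant and the tamoxifen diet in converted against resident ones. In these bulk samples, fewer cells of a type and less RNA per cell cannot be told apart either.

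The 31 genes did not behave as a unit. A few stood among the well-expressed genes of converted and resident macrophages, while Mpo, Ngp, Camp, Prg2 and Epx, which encode other granule proteins of neutrophils and eosinophils, had 0 to 2 reads in each group of the same libraries. Padi4, Il1rl1, Prtn3 and Hdc together made up 97.3% to 98.9% of the summed CPM of the 31 genes in converted libraries and 97.4% to 97.8% in resident libraries. In monocyte-derived libraries the 4 highest genes were Il1rl1, Padi4, Trem1 and S100a9, with 72.6% to 84.4% of the sum. The summed level was 1873 to 1946 CPM in converted, 1803 to 1849 CPM in resident and 166 to 279 CPM in monocyte-derived libraries. By edgeR's quasi-likelihood test with Benjamini-Hochberg adjustment over 13223 genes, called at an adjusted p under 0.05, 17 of the 31 could be tested and 14 were under the filter on low counts. Of the 17 tested members, 14 were called in converted against monocyte-derived libraries (5 higher and 9 lower). There 50.7% of all genes tested were called, 25.8% as higher and 24.9% as lower. Resident against monocyte-derived libraries called 11 of the 17 (6 higher and 5 lower). The share of all genes tested was 50.7% there, with 25.7% higher and 24.9% lower. Converted against resident libraries called 4 of the 17, all lower. Of all genes tested 6.07% were called there, 1.82% as higher and 4.26% as lower. Among the 17 tested members, groups did not overlap for 13 in converted against monocyte-derived libraries (56.3% of all genes tested), for 12 in resident against monocyte-derived ones (59.5%) and for 8 in converted against resident ones (37.3%). No member was called higher in converted against resident libraries by edgeR, DESeq2 or limma-voom, and 1 was higher at an unadjusted p under 0.05.

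**Figure D1:**
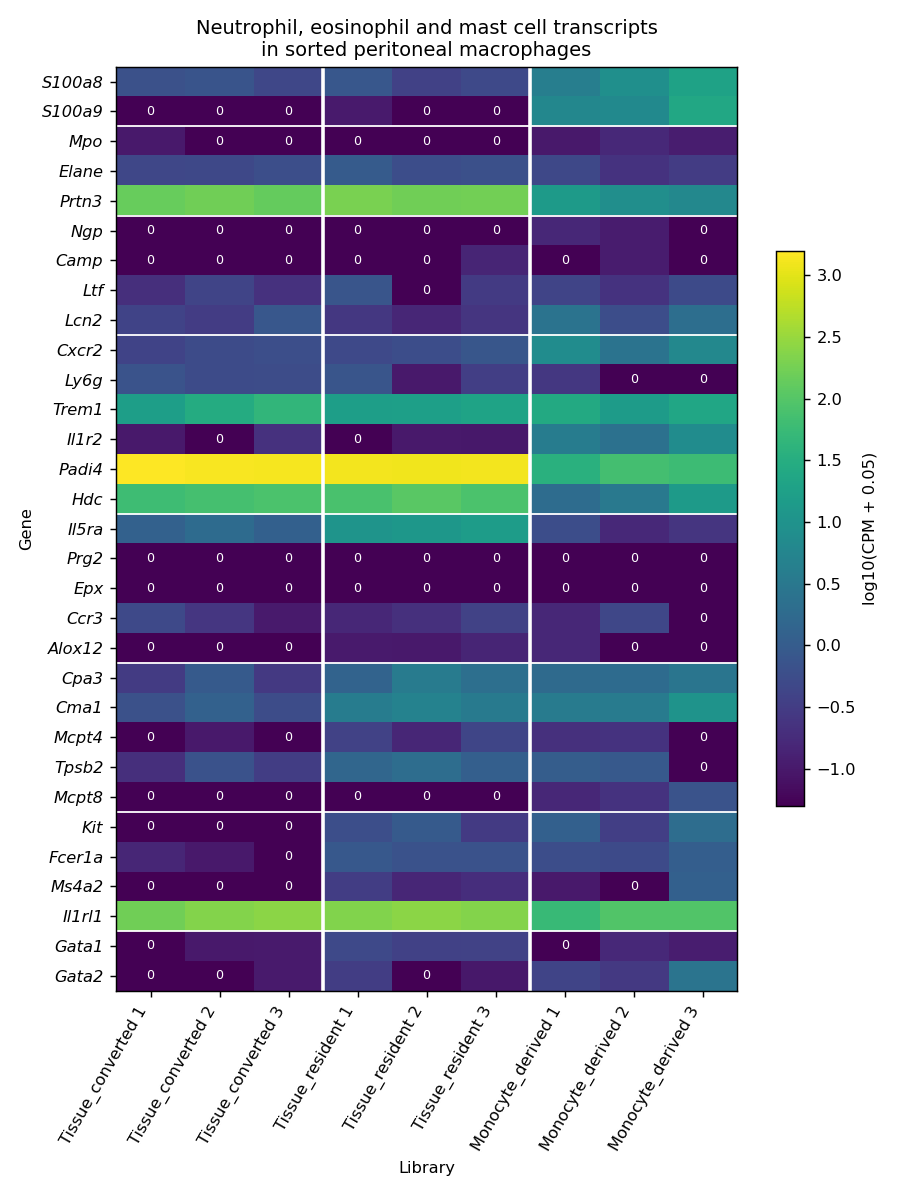
Level of the 31 genes (rows, grouped by role) in the 9 libraries (columns), as log10 of CPM plus 0.05, with 0 written where a library had no read. Padi4, Prtn3, Il1rl1 and Hdc stand out in the 6 converted and resident libraries, and Prg2 and Epx had no read in any library.

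Among the neutrophil enzymes, Padi4 was the most abundant member. It encodes a peptidylarginine deiminase that turns arginine into citrulline on histones and other proteins, and in neutrophils it takes part in the release of chromatin as extracellular traps. Padi4 (ENSMUSG00000025330, GRCm38 chromosome 4, 140745865 to 140774236, minus strand) had 1558, 1405 and 1341 CPM in converted libraries 1 to 3. Resident libraries had 1317, 1265 and 1278 CPM, and monocyte-derived libraries 35.3, 71.3 and 60.02 CPM. Every converted and resident library stood above every monocyte-derived one. The mean was 1435 ± 112 CPM in converted, 1287 ± 27.0 CPM in resident and 55.5 ± 18.4 CPM in monocyte-derived libraries (SD, n = 3 each). Padi4 rose 25.9-fold in converted against monocyte-derived libraries (log2 4.69 ± 0.24 SE, edgeR adjusted p = 3.64e-07) and 23.2-fold in resident against monocyte-derived ones (log2 4.54 ± 0.23 SE, edgeR adjusted p = 4.68e-07). Per length, as CPM per kilobase of exon, it ranked 135 of 47224 annotated genes in converted, 154 in resident and 3837 in monocyte-derived libraries. The converted libraries were all above the resident ones, yet the fitted difference was 1.12-fold and did not pass (log2 0.16 ± 0.20 SE, edgeR adjusted p = 0.722).

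Prtn3 encodes proteinase 3, a serine protease that neutrophil precursors pack into primary granules beside elastase (Elane) and myeloperoxidase (Mpo). Prtn3 (ENSMUSG00000057729, chromosome 10, 79874476 to 79883174, plus strand) had 139, 167 and 134 CPM in converted, 194, 166 and 170.2 CPM in resident, and 13.9, 8.38 and 6.28 CPM in monocyte-derived libraries. Converted and resident libraries again stood apart from all monocyte-derived ones. The rise was 15.3-fold in converted against monocyte-derived libraries (log2 3.94 ± 0.25 SE, edgeR adjusted p = 1.74e-06) and 18.4-fold in resident against monocyte-derived ones (log2 4.20 ± 0.25 SE, edgeR adjusted p = 1.4e-06). Between converted and resident libraries the log2 difference was -0.27 ± 0.21 (SE, edgeR adjusted p = 0.534). Its exons overlap those of Plppr3, a phospholipid phosphatase-related gene on the opposite strand, and no source used here gives the strand setting of the counting. Plppr3 had 15.1 ± 3.70 CPM in converted, 17.3 ± 1.29 CPM in resident and 11.2 ± 3.37 CPM in monocyte-derived libraries (SD, n = 3 each). Plppr3 was called higher in resident against monocyte-derived libraries (1.54-fold, edgeR adjusted p = 0.0454). That call ended with total reads as library size, and without converted library 1, any one resident library, or monocyte-derived library 2 or 3 (adjusted p of 0.0601 to 0.128). The part of the shared exons in the level of Prtn3 was not tested.

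The other primary granule genes were not carried along. Elane starts 3072 bases beyond the end of Prtn3 (chromosome 10, 79886247 to 79888215, plus strand), and its reads were 8, 8 and 10 in converted, 17, 10 and 12 in resident, and 8, 3 and 4 in monocyte-derived libraries. Per length, Elane had 0.468 CPM per kilobase in converted and 0.694 in resident libraries, beside 84.8 and 101.9 for Prtn3. Elane was called in resident against monocyte-derived libraries (2.32-fold higher, edgeR adjusted p = 0.0465). That call ended with total reads as library size (adjusted p = 0.0609), with no filter (0.131) and by DESeq2 (0.127). It also ended without any one converted library, resident library 1 or 2, or monocyte-derived library 2 or 3 (adjusted p of 0.0615 to 0.18). In converted against monocyte-derived libraries Elane did not pass (log2 0.65 ± 0.47 SE, edgeR adjusted p = 0.277). Mpo (chromosome 11, 87793581 to 87804413) had 1 read over the 3 converted libraries, 0 over the resident ones and 4 over the monocyte-derived ones. It was not tested.

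The start regions of the primary granule genes are shown because Prtn3 parted from Elane and Mpo in these libraries, with Padi4 as the highest member and S100a8 as one that went the other way. The sequences are RefSeq's, on GRCm38.p6, from upstream of the start to just past it, 5′ to 3′ on the gene's strand. In Prtn3, Elane, Mpo and S100a8 the capitals mark GAGGAAGT, the letters of a PU.1-type element (the transcription factor of myeloid cells), which in S100a8 stands as its reverse complement. In Padi4 they mark TATAAA, the TATA box, which the S100a8 window also holds, left there in small letters. These 5 windows were picked after the matches were known.
Padi4: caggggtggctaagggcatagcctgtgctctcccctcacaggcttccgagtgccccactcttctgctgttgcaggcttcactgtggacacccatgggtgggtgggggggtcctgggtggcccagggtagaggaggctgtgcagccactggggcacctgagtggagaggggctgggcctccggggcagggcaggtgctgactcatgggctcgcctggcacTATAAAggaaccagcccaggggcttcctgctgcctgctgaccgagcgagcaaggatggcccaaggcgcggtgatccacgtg
Prtn3: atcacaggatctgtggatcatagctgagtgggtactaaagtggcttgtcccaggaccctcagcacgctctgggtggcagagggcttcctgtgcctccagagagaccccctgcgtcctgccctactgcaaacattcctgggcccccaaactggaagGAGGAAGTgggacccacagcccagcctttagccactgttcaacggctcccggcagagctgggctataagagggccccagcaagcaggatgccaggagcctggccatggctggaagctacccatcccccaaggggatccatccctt
Elane: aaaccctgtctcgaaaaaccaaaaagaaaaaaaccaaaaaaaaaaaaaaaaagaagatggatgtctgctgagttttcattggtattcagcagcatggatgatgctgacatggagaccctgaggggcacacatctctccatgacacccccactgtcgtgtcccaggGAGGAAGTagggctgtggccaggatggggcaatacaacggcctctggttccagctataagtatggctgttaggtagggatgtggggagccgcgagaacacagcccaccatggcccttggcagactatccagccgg
Mpo: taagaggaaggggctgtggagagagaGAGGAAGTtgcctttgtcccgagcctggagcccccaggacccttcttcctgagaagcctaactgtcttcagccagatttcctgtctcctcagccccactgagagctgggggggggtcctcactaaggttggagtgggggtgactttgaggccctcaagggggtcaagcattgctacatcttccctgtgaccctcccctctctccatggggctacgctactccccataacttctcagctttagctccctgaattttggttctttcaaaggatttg
S100a8: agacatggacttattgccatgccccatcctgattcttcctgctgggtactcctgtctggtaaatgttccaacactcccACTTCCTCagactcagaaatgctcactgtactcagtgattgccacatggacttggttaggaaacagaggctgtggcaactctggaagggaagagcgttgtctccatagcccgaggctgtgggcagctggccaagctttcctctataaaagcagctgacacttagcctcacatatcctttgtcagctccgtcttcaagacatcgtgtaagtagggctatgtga
These windows are chr4:140774154-140774453 (minus strand) for Padi4, chr10:79879417-79879716 for Prtn3, chr10:79886062-79886361 for Elane, chr11:87793534-87793833 for Mpo and chr3:90668821-90669120 for S100a8 (all plus strand). The start meant here is RefSeq's and can differ from that of the gene models used for the coordinates above. The RefSeq start of Prtn3 lies inside its longer model. The windows of Padi4, Elane, Mpo and S100a8 run across the start of their models, and the marked TATAAA of Padi4 lies inside its model. GAGGAAGT on either strand was in 3.2% of 32851 start windows of the genome, and of the 29 members with a window it was in Prtn3, Elane, Mpo, S100a8 and Ly6g. It was thus in all 3 primary granule genes, of which Prtn3 alone was abundant. TATAAA on the given strand was in 8.32% of all windows and in 8 members. These were S100a8, S100a9, Ly6g, Padi4, Epx, Cpa3, Mcpt4 and Fcer1a. AGATAA on either strand, a GATA-type element, was in 11.2% of all windows and in 8 members. The 8 were the mast cell genes Cpa3, Fcer1a, Ms4a2 and Il1rl1, the eosinophil genes Il5ra and Ccr3, and the neutrophil genes S100a9 and Ltf. TTGCNNAA, a C/EBP-type element, was on either strand in 10.8% of all windows and in 7 members. The 7 were the neutrophil genes S100a9, Ngp, Ltf, Lcn2 and Ly6g and the mast cell genes Fcer1a and Il1rl1. S100a9, Ltf, Fcer1a and Il1rl1 thus held both. A match of letters is a description and not evidence that a factor was bound.

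Hdc, which encodes histidine decarboxylase, makes histamine in mast cells, basophils and activated neutrophils. It had 63.7, 72.2 and 84.6 CPM in converted, 79.1, 111 and 81.6 CPM in resident, and 1.92, 3.18 and 13.9 CPM in monocyte-derived libraries. Monocyte-derived library 3 stood above the other two, and still below every converted and resident library. Hdc rose 11.9-fold in converted (log2 3.57 ± 0.56 SE, edgeR adjusted p = 0.000568) and 14.7-fold in resident libraries (log2 3.88 ± 0.56 SE, edgeR adjusted p = 0.000368), both against monocyte-derived ones. Without monocyte-derived library 3 these were 28.9-fold and 35.7-fold. Converted and resident libraries did not differ past the threshold (log2 -0.30 ± 0.48 SE, edgeR adjusted p = 0.775).

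**Figure D2:**
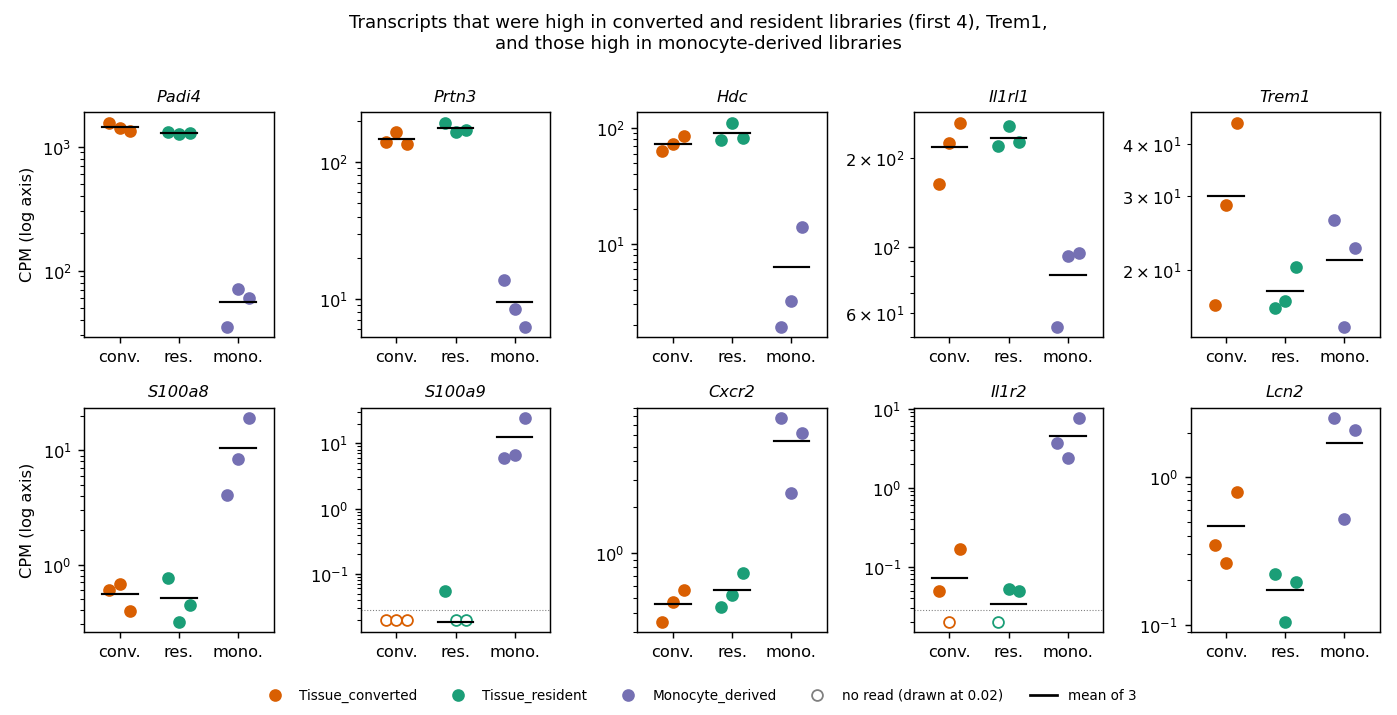
CPM on a log axis of 10 genes in the 3 converted (conv.), 3 resident (res.) and 3 monocyte-derived (mono.) libraries, with the mean as a short line and libraries without a read drawn as open circles at 0.02; each panel has its own axis. Padi4, Prtn3, Hdc and Il1rl1 lie higher in all converted and resident libraries, S100a8, S100a9, Cxcr2 and Il1r2 higher in all monocyte-derived ones, and Trem1 overlaps between groups.

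The calcium-binding proteins S100a8 and S100a9, which pair to form calprotectin and fill the cytoplasm of neutrophils and classical monocytes, went the other way. S100a8 (chromosome 3, 90668978 to 90670035) had 0.598, 0.683 and 0.394 CPM in converted, 0.770, 0.315 and 0.440 CPM in resident, and 4.05, 8.44 and 19.2 CPM in monocyte-derived libraries. It was 18.5-fold lower in converted (log2 -4.21 ± 0.60 SE, edgeR adjusted p = 0.000283) and 20.5-fold lower in resident libraries (log2 -4.36 ± 0.61 SE, edgeR adjusted p = 0.000253). Without monocyte-derived library 3, its highest, these were 11-fold and 12.2-fold. S100a9, 22.6 kb away (chromosome 3, 90692632 to 90695721), had no read in any converted library, 1 read in resident library 1 and none in the other resident libraries. Monocyte-derived libraries had 6.03, 6.71 and 24.4 CPM, from 113, 116 and 376 reads. With the converted group set to 3 reads, the limit a count of 0 allows, S100a9 was at least 223-fold lower there (edgeR adjusted p = 0.000319), or at least 120-fold without monocyte-derived library 3. In resident libraries the ratio of reads put it 678-fold lower, with a 95% counting interval of 121-fold to 26810-fold (edgeR adjusted p = 0.000359). That ratio was 366 without monocyte-derived library 3 (interval 65.1 to 14530), and at least 155-fold without resident library 1, which held the only read. The counting intervals and floors given here cover counting error only. S100a8 kept 32 reads over the converted and 29 over the resident libraries, where S100a9 had 0 and 1.

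Of the secondary granule genes, Ngp, Camp and Ltf were nearly silent in every group. Ngp, neutrophilic granule protein, had 0 reads over the converted, 0 over the resident and 3 over the monocyte-derived libraries. Camp, the cathelicidin antimicrobial peptide, had 0, 2 and 1 reads in the same order. Ltf, lactoferrin, had 13, 18 and 17 reads, and libraries of all groups overlapped. None of these was tested. Lcn2, which encodes the iron-siderophore binding protein lipocalin 2 and is also induced in many cells by inflammation, had 0.349, 0.263 and 0.788 CPM in converted, 0.220, 0.105 and 0.196 CPM in resident, and 2.51, 0.520 and 2.07 CPM in monocyte-derived libraries. Lcn2 fell 9.48-fold in resident against monocyte-derived libraries (log2 -3.25 ± 0.69 SE, edgeR adjusted p = 0.00308), with groups that did not overlap. In converted libraries it was 3.65-fold lower (log2 -1.87 ± 0.60 SE, edgeR adjusted p = 0.0256), with groups that overlapped. This call ended by limma-voom (adjusted p = 0.0589), with only those 2 groups in the fit (0.0563), and without converted library 1 (0.0889), converted library 2 (0.0933), monocyte-derived library 1 (0.0832) or monocyte-derived library 3 (0.0616).

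Among surface receptors, Cxcr2, the receptor that draws neutrophils toward CXC chemokines, had 0.349, 0.473 and 0.563 CPM in converted, 0.440, 0.524 and 0.734 CPM in resident, and 7.73, 2.49 and 6.15 CPM in monocyte-derived libraries. It fell 11.7-fold in converted (log2 -3.55 ± 0.46 SE, edgeR adjusted p = 0.000144) and 9.49-fold in resident libraries (log2 -3.25 ± 0.45 SE, edgeR adjusted p = 0.000216). Il1r2, the decoy receptor that binds IL-1 without signalling, had 1, 0 and 3 reads in converted and 0, 1 and 1 reads in resident libraries, against 70, 41 and 118 reads in monocyte-derived ones. Il1r2 was 59.1-fold lower in converted libraries (log2 -5.88 ± 0.74 SE, edgeR adjusted p = 0.000123), or 141-fold without converted library 3, which held 3 of its 4 reads. In resident libraries the ratio of reads put it 128-fold lower, with a 95% counting interval of 35.1-fold to 1065-fold (edgeR adjusted p = 9.05e-05). Ly6g, the surface protein by which mouse neutrophils are sorted, had 13, 9 and 9 reads in converted, 13, 1 and 6 reads in resident and 4, 0 and 0 reads in monocyte-derived libraries, and was under the filter. Its reads were thus fewest in the monocyte-derived libraries, where S100a8, S100a9 and Cxcr2 were highest. Trem1, a receptor that amplifies inflammatory signals in neutrophils and monocytes, had 16.5, 28.6 and 45.0 CPM in converted, 16.2, 16.8 and 20.4 CPM in resident, and 26.3, 14.6 and 22.5 CPM in monocyte-derived libraries. Converted library 3 was its highest and the groups overlapped. Its log2 difference was 0.50 ± 0.33 in converted and -0.25 ± 0.34 in resident against monocyte-derived libraries, and 0.75 ± 0.33 in converted against resident ones (SE, edgeR adjusted p = 0.238, 0.564 and 0.239). Without converted library 1 the first of these passed (log2 0.80, edgeR adjusted p = 0.0352).

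Between converted and resident libraries none of the 10 tested neutrophil members passed by edgeR, DESeq2 or limma-voom. Of all genes tested, edgeR called 6.07% there. Of the 10 members 1, Trem1, had an unadjusted p under 0.05 by edgeR. The log2 difference was 0.15 ± 0.72 for S100a8, -0.56 ± 0.42 for Elane, 1.38 ± 0.77 for Lcn2 and -0.31 ± 0.53 for Cxcr2 (SE, edgeR adjusted p = 0.933, 0.497, 0.357 and 0.796). Lcn2 was higher in every converted than in every resident library, on 26 against 10 reads.

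Of the eosinophil genes, those for granule proteins were not read at all. Prg2, the major basic protein, and Epx, eosinophil peroxidase, had 0 reads in all 9 libraries, which allows up to 0.0181 CPM over the libraries pooled. Ccr3, the eotaxin receptor of eosinophils, had 14 reads over converted, 12 over resident and 9 over monocyte-derived libraries. Alox12, the lipoxygenase best known from platelets, had 0, 4 and 2 reads in the same order. The exception was Il5ra, the alpha chain of the IL-5 receptor. It had 1.196, 1.84 and 1.13 CPM in converted, 10.51, 11.7 and 15.2 CPM in resident, and 0.533, 0.116 and 0.194 CPM in monocyte-derived libraries. The 3 groups did not overlap, with resident highest and monocyte-derived lowest. Il5ra fell 8.97-fold in converted against resident libraries (log2 -3.17 ± 0.33 SE, edgeR adjusted p = 0.00111). It rose 42.3-fold in resident against monocyte-derived libraries (log2 5.40 ± 0.41 SE, edgeR adjusted p = 4.44e-06) and 4.71-fold in converted against monocyte-derived ones (log2 2.24 ± 0.46 SE, edgeR adjusted p = 0.00242). Without monocyte-derived library 1, which held 10 of the 15 reads of its group, these rises were 78.3-fold and 8.74-fold. Summed B-cell markers were 64.5, 169.6 and 76.5 CPM in converted, 1088, 1194 and 1400 CPM in resident, and 52.1, 32.7 and 75.9 CPM in monocyte-derived libraries. All 8 B-cell markers were called lower in converted against resident libraries, where 4.26% of all genes tested were. Il5ra and the B-cell sum were highest in the same library within the converted and within the resident group (converted 2 and resident 3). Within the monocyte-derived group they were not, with Il5ra highest in library 1 and the B-cell sum in library 3. The part of B-cell transcripts in the level of Il5ra was not tested.

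Of the mast cell receptors, Il1rl1 rose beside Padi4, Prtn3 and Hdc. It encodes ST2, the receptor for IL-33, on mast cells, basophils, type 2 lymphoid cells and some macrophages. Il1rl1 (chromosome 1, 40429570 to 40465415, plus strand) had 163, 225 and 263 CPM in converted, 219, 255 and 225 CPM in resident, and 54.0, 93.1 and 95.5 CPM in monocyte-derived libraries. All monocyte-derived libraries lay below the rest. Il1rl1 rose 2.68-fold in converted (log2 1.42 ± 0.23 SE, edgeR adjusted p = 0.000686) and 2.88-fold in resident libraries (log2 1.53 ± 0.23 SE, edgeR adjusted p = 0.000457). Between converted and resident libraries the log2 difference was -0.11 ± 0.22 (SE, edgeR adjusted p = 0.838). Counts per gene do not separate its membrane form from its secreted decoy form.

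Cma1, Cpa3, Kit and Fcer1a followed another pattern, with low levels in resident and monocyte-derived libraries and lower ones in every converted library. Summed NK-cell, dendritic-cell, monocyte and erythroid (red cell) markers were also lowest there, but not those of other lists. The B-cell sum averaged 103.5 CPM in converted and 53.6 CPM in monocyte-derived libraries. T-cell sums of converted (0.900 to 4.67 CPM) and monocyte-derived libraries (1.45 to 9.58 CPM) overlapped. The platelet and megakaryocyte sum was highest in converted libraries, with a mean of 326.5 CPM, of which Pf4 gave 326.2 CPM. The 6 NK-cell markers summed to 1.94 to 2.57 CPM in converted, 15.8 to 25.1 CPM in resident and 19.1 to 96.1 CPM in monocyte-derived libraries, and the 6 dendritic-cell markers to 4.69 to 4.95, 10.9 to 13.3 and 10.8 to 35.2 CPM in the same groups. Of 5 tested NK-cell markers, 5 were called lower in converted against monocyte-derived and 3 in converted against resident libraries. Of 5 tested dendritic-cell markers these were 4 and 1. Of all genes tested, 24.9% and 4.26% were called lower in these comparisons. The part of other cells in the low converted level of these mast cell genes was not tested. Cma1, a mast cell chymase (chromosome 14, 55941451 to 55944675), had 0.598, 1.21 and 0.506 CPM in converted, 3.80, 4.93 and 3.38 CPM in resident, and 3.68, 3.70 and 10.0 CPM in monocyte-derived libraries. Every converted library was below every other library. Cma1 fell 7.42-fold in converted against monocyte-derived libraries (log2 -2.89 ± 0.49 SE, edgeR adjusted p = 0.00078), or 4.74-fold without monocyte-derived library 3. Against resident libraries Cma1 fell 5.18-fold (log2 -2.37 ± 0.49 SE, edgeR adjusted p = 0.0212), a call that ended without any one of those libraries other than converted library 2 (adjusted p of 0.0653 to 0.0933). Resident and monocyte-derived libraries overlapped (log2 -0.52 ± 0.42 SE, edgeR adjusted p = 0.333).

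Cpa3, mast cell carboxypeptidase A (chromosome 3, 20215620 to 20242181), had 0.249, 0.893 and 0.225 CPM in converted, 1.32, 3.72 and 2.154 CPM in resident, and 1.76, 1.79 and 2.78 CPM in monocyte-derived libraries. Converted libraries were again the lowest, converted library 2 being nearest to the rest. Cpa3 fell 4.55-fold in converted against monocyte-derived libraries (log2 -2.19 ± 0.57 SE, edgeR adjusted p = 0.00919), or 8.60-fold without converted library 2. Against resident libraries it fell 5.20-fold (log2 -2.38 ± 0.56 SE, edgeR adjusted p = 0.0371), or 9.84-fold without converted library 2, and the call ended without any one of the other 5 libraries compared (adjusted p of 0.0519 to 0.134). Cpa3 did not differ past the threshold between resident and monocyte-derived libraries (log2 0.19 ± 0.49 SE, edgeR adjusted p = 0.77). Tpsb2, a tryptase that mast cell granules hold bound to heparin, had 3, 12 and 5 reads in converted, 27, 37 and 22 in resident and 19, 15 and 0 in monocyte-derived libraries, the last group with none in library 3. Its log2 differences were -0.86 ± 0.85 in converted and 1.21 ± 0.74 in resident against monocyte-derived libraries, and -2.07 ± 0.79 in converted against resident ones (SE, edgeR adjusted p = 0.43, 0.198 and 0.171). The last of these passed with only those 2 groups in the fit and without monocyte-derived library 3 (edgeR adjusted p = 0.016 and 0.0353). Mcpt4, a chymase of connective tissue mast cells, had 1 read over converted, 16 over resident and 6 over monocyte-derived libraries, under the filter. The ratio of reads put it 15.8-fold lower in converted against resident libraries, with a 95% counting interval of 2.45-fold to 662-fold. Without converted library 2, which held that read, Mcpt4 was at least 3.50-fold lower.

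Kit, the stem cell factor receptor that mast cells keep, had no read in any converted library, 10, 17 and 5 reads in resident and 21, 5 and 31 reads in monocyte-derived ones. It was at least 20.99-fold lower in converted against monocyte-derived libraries (edgeR adjusted p = 0.00368), or 13.7-fold without monocyte-derived library 3, and at least 10.52-fold lower in converted against resident libraries. The second difference did not pass (edgeR adjusted p = 0.0639), though it did by DESeq2, by limma-voom, with no filter and without monocyte-derived library 2 or 3 (adjusted p of 0.00171 to 0.0493). Kit in resident against monocyte-derived libraries overlapped (log2 -1.004 ± 0.71 SE, edgeR adjusted p = 0.276). Fcer1a, the chain of the high-affinity receptor that binds IgE, had 2, 1 and 0 reads in converted, 15, 12 and 13 in resident, and 10, 8 and 16 in monocyte-derived libraries. The ratio of reads put Fcer1a 12.5-fold lower in converted against monocyte-derived libraries, with a 95% counting interval of 3.94-fold to 63.7-fold (edgeR adjusted p = 0.00178). It was 13.2-fold lower against resident libraries, with an interval of 4.19-fold to 66.4-fold (edgeR adjusted p = 0.0144), a call that ended without converted library 2 or 3 or resident library 1 or 3 (adjusted p of 0.0528 to 0.0666). Without converted library 1, which held 2 of the 3 reads, the ratios were 24.3 (interval 4.08 to 988) and 25.5 (interval 4.33 to 1033). Between resident and monocyte-derived libraries Fcer1a did not pass (log2 0.06 ± 0.46 SE, edgeR adjusted p = 0.932). Ms4a2, the beta chain of the same receptor, had 0 reads over converted, 10 over resident and 19 over monocyte-derived libraries, 18 of the 19 in monocyte-derived library 3.

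Mcpt8, a serine protease that marks mouse basophils, was read in monocyte-derived libraries alone, with 2, 3 and 10 reads against 0 in all converted and all resident libraries. It was at least 5.52-fold lower in converted and at least 5.6-fold lower in resident libraries, and it was under the filter. Without monocyte-derived library 3, which held 10 of the 15 reads, these bounds were 2.63-fold and 2.67-fold. The transcription factors of the mast cell and basophil lineage, Gata1 and Gata2, differed in where they were read. Gata2 had 0, 0 and 1 reads in converted, 5, 0 and 1 in resident, and 7, 4 and 41 in monocyte-derived libraries. Gata1, on chromosome X, had 0, 1 and 1 reads in converted, 8, 6 and 7 in resident, and 0, 2 and 1 in monocyte-derived libraries. The ratio of reads put Gata1 10.3-fold lower in converted against resident libraries, with a 95% counting interval of 2.53-fold to 91.1-fold. With no filter on low counts, which lets 12 of the 14 filtered genes be tested, Gata2, Mcpt8 and Ly6g passed in converted and Gata2 and Mcpt8 in resident against monocyte-derived libraries, and none of the 12 passed in converted against resident ones. In that last comparison 2 of the 12 had an unadjusted p under 0.05 by edgeR, Gata1 and Mcpt4, both lower in converted libraries.

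**Figure D3:**
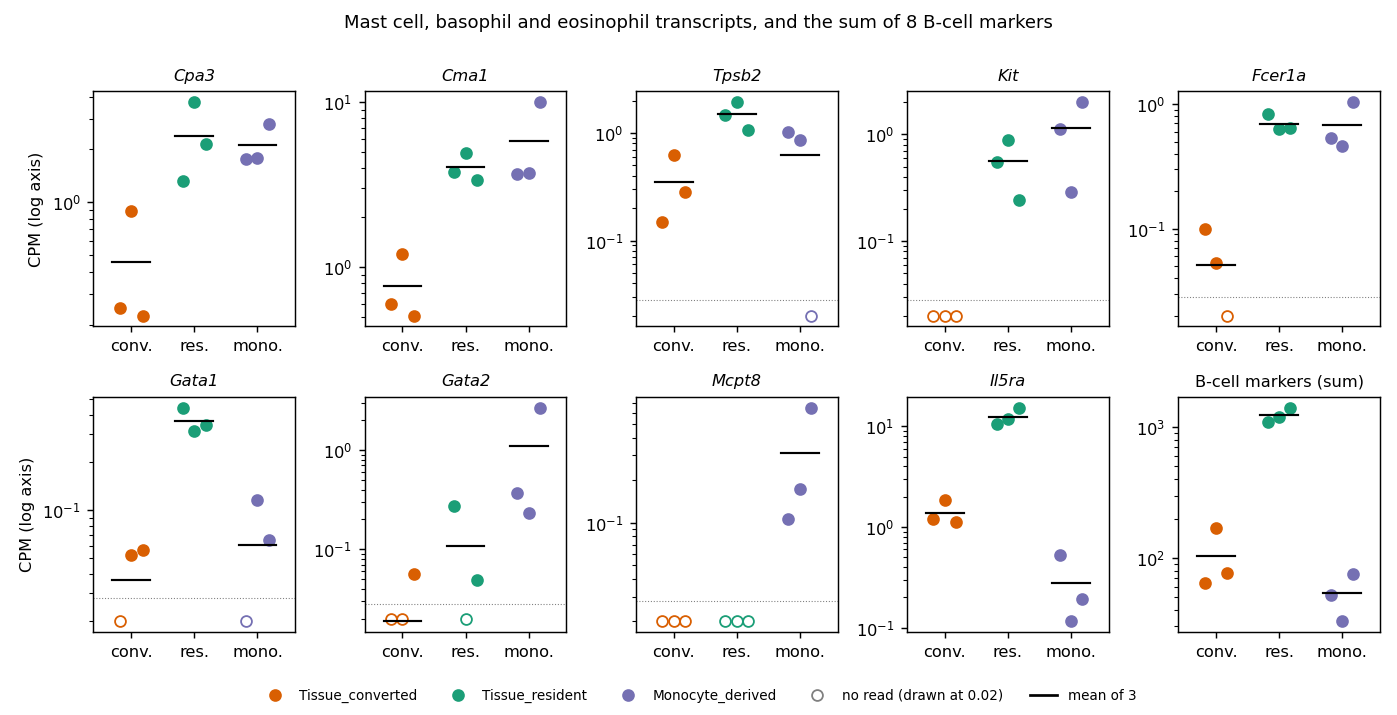
CPM on a log axis of 9 mast cell, basophil and eosinophil genes and of the sum of 8 B-cell markers in the 3 converted (conv.), 3 resident (res.) and 3 monocyte-derived (mono.) libraries, drawn as in the dot plot of neutrophil genes, with open circles at 0.02 for no read. Converted libraries are the lowest in Cpa3, Cma1, Kit and Fcer1a, and Il5ra is highest in resident libraries, as is the B-cell sum.

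Within the monocyte-derived group, members differed in which library held most. Of 16 members with at least 20 reads in that group, 10 were highest in library 3: S100a8, S100a9, Il1r2, Hdc, Cpa3, Cma1, Kit, Fcer1a, Il1rl1 and Gata2. Another 5 were highest in library 1 (Prtn3, Lcn2, Cxcr2, Trem1 and Tpsb2), and Padi4 in library 2. The NK-cell markers, 19.1, 26.9 and 96.1 CPM in libraries 1 to 3, were also highest in library 3, and the monocyte markers, 1700, 638 and 923 CPM, in library 1. Ratios between members were not constant across these libraries. S100a8 and Gata2 were highest in library 3 at 19.2 and 2.66 CPM, while Cxcr2 was highest in library 1 at 7.73 CPM, with 6.15 CPM in library 3. In the resident group 16 members had at least 20 reads. Of these, 7 were highest in library 1: S100a8, Elane, Prtn3, Ly6g, Padi4, Fcer1a and Gata1. Another 6 were highest in library 2 (Hdc, Cpa3, Cma1, Tpsb2, Kit and Il1rl1), and 3 in library 3 (Cxcr2, Trem1 and Il5ra). The B-cell, T-cell and NK-cell markers were highest in resident library 3, at 1400, 23.8 and 25.1 CPM. In the converted group, of 14 such members, Prtn3, S100a8, Il5ra, Cpa3, Cma1 and Tpsb2 were highest in library 2. The B-cell and T-cell markers were highest there too, at 169.6 and 4.67 CPM. Another 6 members, Elane, Lcn2, Cxcr2, Trem1, Hdc and Il1rl1, were highest in library 3, and Ly6g and Padi4 in library 1. The part of these other transcripts in the order of the members was not tested.

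**Figure D4:**
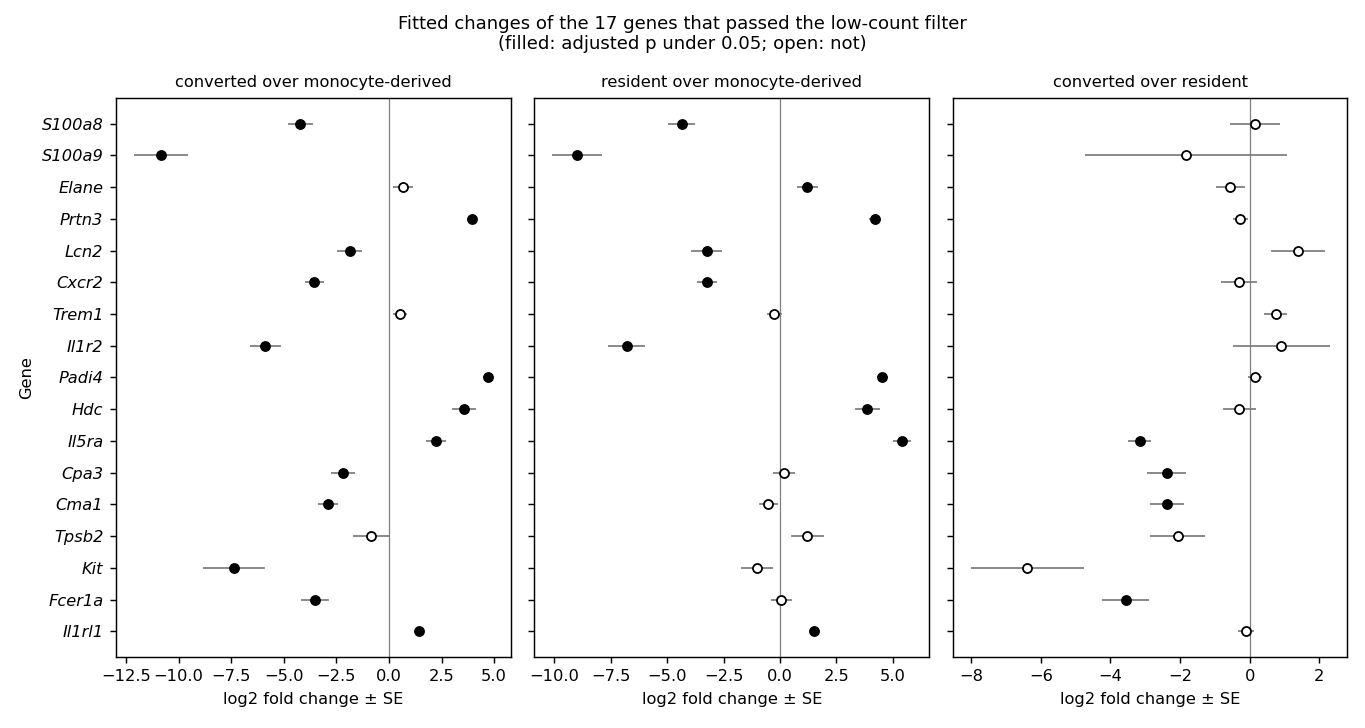
Fitted log2 fold change with its standard error (bars) of the 17 genes that passed the filter, in converted over monocyte-derived, resident over monocyte-derived and converted over resident libraries, with filled points for an edgeR adjusted p under 0.05. Changes of S100a9 and Kit against groups without a read are fitted values and no bounds; Padi4, Prtn3, Hdc and Il1rl1 lie to the right in the first 2 panels and near 0 in the third.

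The fitted changes by role are set side by side in the plot of log2 fold changes; both comparisons with monocyte-derived libraries share those 3 libraries. In converted against monocyte-derived libraries, neutrophil members gave 3 called higher, 5 lower and 2 not called of 10 tested out of 15, where 50.7% of all genes tested were called. Mast cell and basophil members gave 1 higher (Il1rl1), 4 lower (Cpa3, Cma1, Kit, Fcer1a) and 1 not called of 6 tested out of 11. In resident against monocyte-derived libraries the neutrophil members gave 4 higher, 5 lower and 1 not called, where again 50.7% of all genes were called. The mast cell and basophil members there gave 1 higher, 0 lower and 5 not called. In converted against resident libraries none of the 10 neutrophil members tested was called, and 3 of 6 mast cell and basophil members were called lower, where 6.07% of all genes were called. A count of 0 of 10 is near that share. Median log2 changes of the tested mast cell and basophil members were -2.54 in converted and 0.12 in resident against monocyte-derived libraries and -2.38 in converted against resident ones, beside -0.01, 0.00 and 0.01 for all genes tested. For the neutrophil members they were -0.68, -1.75 and -0.06 in the same order. With S100a9 and Kit at their bounds these 6 medians were the same. Cpa3, Cma1, Tpsb2, Kit and Fcer1a averaged 0 to 0.771 CPM in converted libraries. They met the low-count filter only with reads of resident or monocyte-derived libraries, as S100a9 and Il1r2 did with those of monocyte-derived ones. Genes let in this way lean toward falls, so these counts and medians are a description and not a test.

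A list of 31 further neutrophil genes also held calls in both directions. In converted against monocyte-derived libraries 6 were higher, 12 lower and 1 not called of 19 tested, with a median log2 change of -1.06, where 25.8% of all genes tested were higher and 24.9% lower. In resident against monocyte-derived ones 6 were higher, 11 lower and 2 not called, with a median of -1.55, where 25.7% of all genes were higher and 24.9% lower. Lrg1, a secreted leucine-rich glycoprotein, had 619 ± 115 CPM in converted, 771 ± 62.1 in resident and 4.07 ± 1.15 in monocyte-derived libraries (SD, n = 3 each), a rise of 151-fold in converted and 188-fold in resident libraries (edgeR adjusted p = 3.12e-08 and 2.99e-08). Pglyrp1, a peptidoglycan recognition protein of neutrophil granules, rose 53.5-fold and 67.5-fold (edgeR adjusted p = 3.07e-06 and 2.57e-06), or 102-fold and 129-fold without monocyte-derived library 3. Clec4e, which encodes the receptor Mincle, rose 7.03-fold in converted libraries (edgeR adjusted p = 1.16e-06) and 5.01-fold in resident ones. The interferon-induced membrane protein gene Ifitm6 rose 5.79-fold in converted (edgeR adjusted p = 2.7e-06) and 6.67-fold in resident libraries (edgeR adjusted p = 1.96e-06). Ltb4r1, a receptor for leukotriene B4, had 7.30 ± 0.887 CPM in converted, 9.72 ± 1.12 in resident and 343 ± 197 in monocyte-derived libraries (SD, n = 3 each), a fall of 46.9-fold and 35.4-fold (edgeR adjusted p = 3.72e-06 and 5.48e-06). Tarm1, an activating receptor of myeloid cells, fell 35.4-fold in converted libraries (edgeR adjusted p = 1.54e-06) and 21.9-fold in resident ones. Mmp8, neutrophil collagenase, had no read in converted libraries and was at least 54.5-fold lower there (edgeR adjusted p = 0.000225). With 3 reads over the resident libraries it was 55.3-fold lower, with a 95% counting interval of 18.5-fold to 271-fold (edgeR adjusted p = 0.000406). All 3 reads were in resident library 2, without which Mmp8 was at least 37.0-fold lower. Retnlg, a resistin-like protein of neutrophils, had no read in resident libraries and was at least 29.1-fold lower there (edgeR adjusted p = 0.000903), or 17.6-fold without monocyte-derived library 3. In converted libraries, with 5 reads, Retnlg was 16.6-fold lower (edgeR adjusted p = 0.00285). That fold was 9.73 without monocyte-derived library 3 and 26.2 without converted library 2. In converted against resident libraries 1 of the 19 was called, Cd177, a neutrophil surface protein, with a mean of 4.16 ± 1.28 CPM in converted and of 1.27 ± 0.392 CPM in resident samples (SD, n = 3 each; 3.24-fold, edgeR adjusted p = 0.0193). That call ended without converted library 3 or any one resident library (adjusted p of 0.061 to 0.0902), and 1 of 19 is near the 6.07% of all genes called.

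Further eosinophil and mast cell lists, of 9 and 19 genes, had few tested members. Of 6 eosinophil genes tested, 1 was higher and 2 lower in converted against monocyte-derived libraries, and 2 higher and 1 lower in resident against monocyte-derived ones. In both comparisons 3 of 6 is near the 50.7% of all genes called. S1pr4, a receptor for sphingosine 1-phosphate on blood cells, rose 6.67-fold in converted and 7.09-fold in resident libraries (edgeR adjusted p = 9.63e-05 and 7.98e-05), and Cebpa, a myeloid transcription factor, fell 4.55-fold and 5.12-fold (edgeR adjusted p = 2.5e-05 and 1.63e-05). Csf2rb2, a beta chain of the IL-3 receptor, fell 1.97-fold in converted libraries (edgeR adjusted p = 0.0128), a call that ended with no filter and without converted library 1 or 2. Csf2rb, the beta chain shared by the receptors for IL-3, IL-5 and GM-CSF, rose 1.31-fold in resident libraries (edgeR adjusted p = 0.00986). Of 5 mast cell and basophil genes tested, 1 was higher and 3 lower in each of these comparisons, where 50.7% of all genes were called. Ltc4s, leukotriene C4 synthase, rose 5.13-fold and 5.54-fold (edgeR adjusted p = 7.67e-06 and 5.88e-06). Cd200r3, a receptor of basophils and mast cells, fell 8.08-fold and 7.66-fold (edgeR adjusted p = 3.51e-05 and 3.96e-05). Fcer1g, the signalling chain that the IgE receptor shares with other Fc receptors of macrophages, fell 2.38-fold and 2.22-fold (edgeR adjusted p = 4.23e-06 and 7.32e-06). Mitf, a transcription factor of mast cells and macrophages, fell 1.41-fold and 1.37-fold (edgeR adjusted p = 0.0306 and 0.0418), calls that ended with the 2 groups alone. The first also ended without converted library 1, converted library 2 or monocyte-derived library 2 (adjusted p of 0.0914 to 0.1), and the second without monocyte-derived library 2, any one converted or any one resident library (0.0505 to 0.162). In converted against resident libraries none of these 11 genes was called by edgeR, and Csf2rb and P2ry14 had an unadjusted p under 0.05. DESeq2 and limma-voom called 0 of them. Csf2rb was called lower in converted libraries by edgeR with only those 2 groups in the fit (adjusted p = 0.0238) and without monocyte-derived library 1 (0.0355). A count of 0 of 11 is near the 6.07% of all genes called.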

How the data were processed

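Raw read counts per Ensembl gene were deposited by the authors, 1 file per library. The counts were made with TopHat2 2.1.0 and HTSeq on GRCm38, per the submitters' processing notes. Annotation, strand setting and the treatment of multi-mapped reads: not given in the sources used here. RNA came from sorted macrophages and libraries from a low-input total RNA kit, per the labels' protocols.

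Of 47729 identifiers, 47224 matched GENCODE M21, which gave symbols, coordinates and exon lengths. The 5 summary lines per file were left out; reads in no gene were 4.02% to 5.66% and ambiguous reads 4.47% to 4.68%. Genes passing filterByExpr (minimum count 10, minimum total 15) were scaled with TMM and tested with edgeR 4.0.16 (R 4.3.3) in 1 robust quasi-likelihood fit over the 9 libraries (6 residual degrees of freedom). Standard errors are the log2 fold change over the root of its F statistic. Levels are CPM on TMM-scaled sizes. A group with no read was set to a floor of 3 reads over the group. With 1 to 3 reads an exact 95% counting interval of the ratio is given. The fit was tested on simulated data. Alternatives were DESeq2 1.42.0, limma-voom (limma 3.58.1), other scalings and filters, 2-group fits, the replicate number as a block, and each library left out in turn. The members and lists were chosen with earlier results of these data known. All members are named. Of the further lists, up to 3 called genes per direction and comparison are named, those with the largest change among genes of at least 1 CPM in a group. Start regions came from RefSeq.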

Additional observations from a re-analysis of the deposited data

How the results depend on the processing

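No member reversed direction with a call under any setting. Over the 17 tested members and 3 comparisons, 376 of the values recomputed under the 8 other settings stayed on their side of the threshold, 6 lost a call and 4 gained one; with single libraries left out these were 427, 25 and 4. The lost calls are those of Lcn2, Elane, Cpa3, Cma1 and Fcer1a given above. A member that a setting left untested has no value there and does not count as a lost call. Members called in converted against resident libraries numbered 1 to 6 as single libraries were left out, all lower, against 4 with all libraries. In converted against monocyte-derived libraries they numbered 13 to 15 and in resident against monocyte-derived ones 10 to 12. The 8 other settings moved the first of these more. There 11 members were called with a filter of at least 1 CPM in 3 libraries, 11 with only the 2 groups in the fit and 17 with no filter. Those called lower were 6, 6 and 11, against 9. In resident against monocyte-derived libraries these settings gave 9 to 12 and in converted against resident ones 3 to 5. All genes called in converted against resident libraries numbered 803, and 1321 by DESeq2, 2067 with those 2 groups alone, 530 with the replicate block, and 245 to 1628 with single libraries left out. The cause was not tested. Same-numbered libraries of different groups did not deviate together (correlations of -0.094 to 0.065 over 9 pairs, against -0.089 to 0.106 over 18 other pairs). This check showed no sign of pairing by number. It cannot exclude that same-numbered libraries were sorted or prepared together. With the replicate block, 14, 10 and 4 members were called in the 3 comparisons in the order above, against 14, 11 and 4 without it; the member call it ended was that of Elane, at an adjusted p of 0.0556. Among the further genes named, the block ended the call of Cd177 in converted against resident libraries (0.0528) and those of Mitf in converted and in resident against monocyte-derived ones (0.0514 and 0.064). Changing the scaling shifted the median log2 change of all genes by at most 0.057. Depth limits the members with few reads: 14 of 31 were under the filter, and a difference in them was not detectable at this depth unless stated.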
